A study of Rattus norvegicus with 24 samples.

Results

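The potassium channels described here are 10 genes whose products move potassium across the cells of the kidney tubule, namely Kcne1, Kcnq1, Kcnj1, Kcnma1, Kcnj10, Kcnj16, Kcnj15, Kcnk1, Kcnk5 and Kcnn4. They were taken by name, and each was looked up among the transcript clusters of the array, a cluster being the set of probes that report one transcript. Of the 10 genes, 9 had a cluster of their own, out of 14324 named genes on the array. The only cluster listed for Kcnk5 also carried a second gene symbol, so no value is given for it. Each of the 9 had exactly 1 cluster, so that no measured level was needed to pick between clusters. The list was chosen by its tubule theme with the fold changes between lithium-treated and control rats on these arrays already known, that of Kcne1 in cortex among them, so the fold changes and p-values below describe these genes and are no independent evidence about them.

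Tubule cells use potassium channels for different tasks on their different faces. On the apical side, towards the urine, channels such as ROMK (Kcnj1) and BK (Kcnma1) let potassium leave the cell, which recycles it for the sodium, potassium and chloride cotransporter of the thick ascending limb and secretes it in the collecting duct. On the basolateral side, inward rectifiers built from Kcnj10, Kcnj15 and Kcnj16 return the potassium that the sodium pump brings in and set the membrane voltage that drives transport. Lithium enters collecting duct principal cells through the epithelial sodium channel and impairs their response to vasopressin, so that the kidney loses water.

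The kidneys came from 12 male rats of the Wistar strain, of which 6 were given lithium and 6 were controls. The lithium-treated rats ate food with 40 mmol lithium per kg for 7 days and 60 mmol per kg for the rest of 6 months, with a salt block to keep their sodium balance, and the control rats ate standard food without a salt block being named for them. Each animal gave 1 piece of medulla and 1 piece of cortex, so that there were 24 arrays in 4 groups of 6. Values are log2 signal intensities, and a difference of 1 on this scale is a doubling of signal. A gene was tested in a tissue if its log2 value reached 6 on at least 4 of the 12 arrays of that tissue, and the diets were compared with limma, with a threshold of 0.05 for the p-value adjusted over all clusters of the tissue. RNA was taken from whole pieces of tissue, so that fewer cells of a type and less RNA per cell cannot be told apart.

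The array medians lay between 6.12 and 6.22 in medulla and between 5.75 and 5.83 in cortex. The cortex array of lithium-treated animal 17 equals the mean of the other 5 lithium-treated arrays at every cluster, so it adds no value of its own. The lithium-treated cortex group is therefore described over n = 5, while the fit keeps the array with a scan group of its own. The tissue labels were checked against marker genes in the control rats. There 17 of 19 proximal tubule markers were lower in medulla than in cortex and 6 of 8 markers of the thin limb and papilla were higher. Over all 16388 clusters of that fit, 7.93% were lower in medulla and 64.4% were higher, so that the count of 6 of 8 alone says little about the labels. With 6 arrays in a group, or 5, the precision of the values is limited by that number.

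After 6 months of lithium, 1 channel gene fell and 1 rose in cortex, and 1 rose in medulla. In cortex, Kcne1 fell at least 1.57-fold, counted only down to the log2 value of 6 (3.26-fold between the measured means), and Kcnk1 rose 1.65-fold, and in medulla Kcnq1 rose 1.86-fold. These are 2 of the 8 genes tested in cortex, where 0.574% of all 13766 clusters passed the test, and 1 of the 8 tested in medulla, where 1.19% of 16025 clusters did. By direction, 0.109% of the cortex clusters fell and 0.465% rose, and 0.83% of the medulla clusters rose. Kcnn4 in cortex and Kcne1 in medulla were too dim to be tested. Given how the genes were listed, nothing about potassium channels as a class is read from these counts. The median log2 fold change of the tested channel genes was 0.01 in cortex and 0.04 in medulla, against 0.01 and -0.01 over all clusters.

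**Figure D1:**
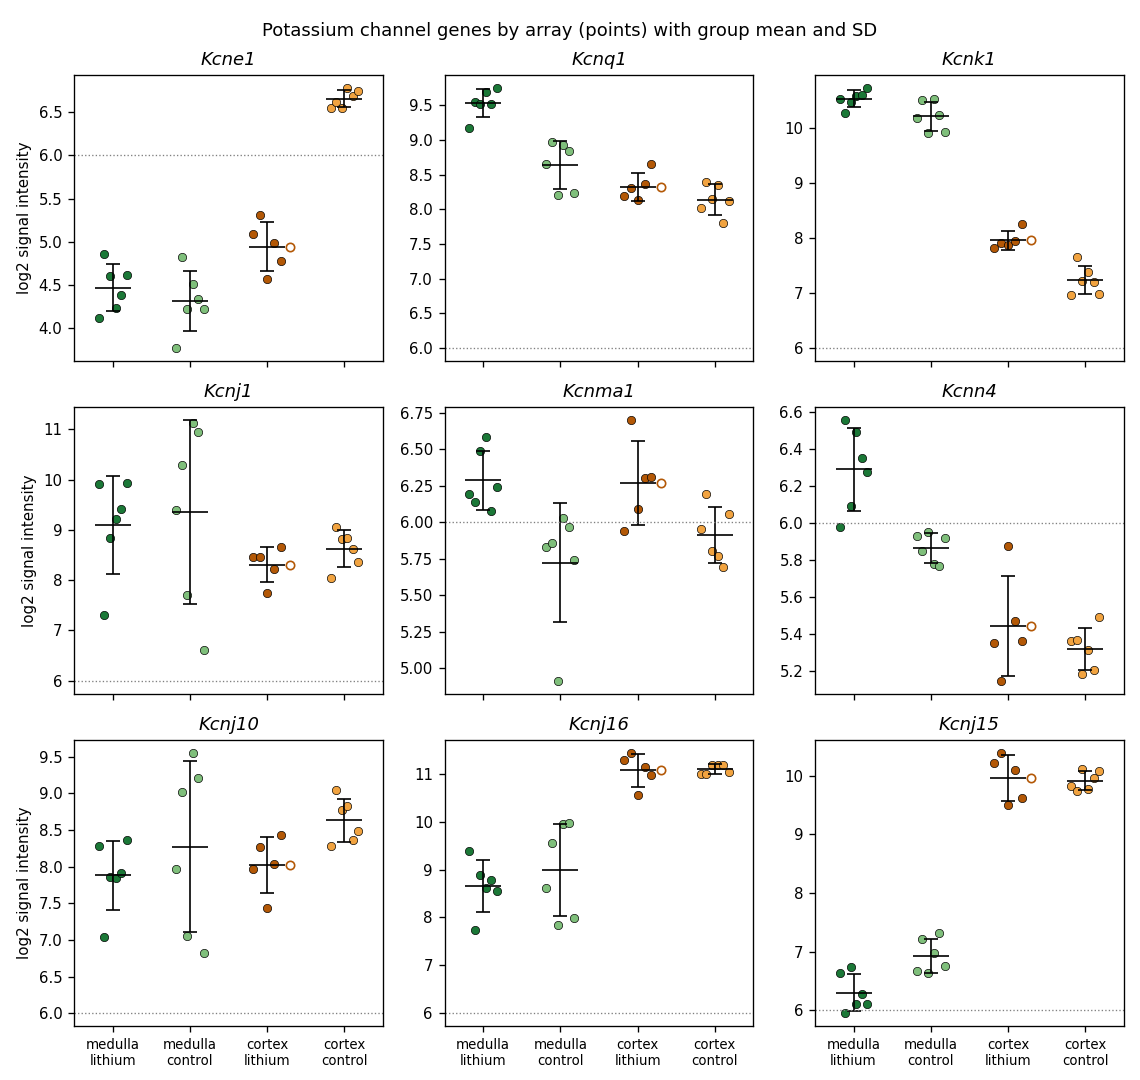
Log2 signal intensity (y axis, a different range in each panel) of the 9 measured genes on each array (points), with the mean and SD of lithium-treated and control rats in medulla and in cortex. The open point is the cortex array of lithium-treated animal 17, which equals its group's mean and is left out of the mean and SD, and the dotted line marks the log2 value of 6. Kcne1 in lithium-treated cortex lies between 4.57 and 5.31, below all control cortex arrays, and Kcnq1 in lithium-treated medulla lies between 9.17 and 9.75, above all control medulla arrays.

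Kcne1 encodes a small single-pass subunit that joins the Kcnq1 pore and slows its opening, and in mouse kidney it is found in the proximal tubule. In cortex its log2 intensity was 5.09, 5.31, 4.57, 4.99 and 4.78 in lithium-treated animals 6, 18, 19, 21 and 22. In control cortex it had a lowest value of 6.54, a median of 6.65 and a highest value of 6.78. All 5 lithium-treated arrays lay below all 6 control arrays and under the log2 value of 6, and all 6 control arrays lay above it, so that the gene entered the test only through the control arrays. The log2 fold change was -1.70 (SE 0.131, 95% interval -1.99 to -1.42, adjusted p = 1.25e-04, limma) between the measured means, of which the lithium-treated one lies in the range called too dim to test. Within the 3 scan groups that held both diets the difference ran from -1.83 to -1.49, and the call held when any single array was left out (highest adjusted p = 0.00112). Groups did not overlap, with lithium lower, for Kcne1 alone among the 8 tested genes and for 0.719% of all clusters in cortex.

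In medulla, Kcne1 was near the bottom of the scale on both diets. The lithium-treated arrays had a lowest value of 4.12, a median of 4.50 and a highest of 4.86, and the control arrays 3.78, 4.29 and 4.83. No medulla array reached 6, so the gene was not tested there, and the means differed by 0.15. In the fit of all 24 arrays, the lithium effect on Kcne1 in medulla minus that in cortex was 1.86 (SE 0.239, 95% interval 1.36 to 2.36, adjusted p = 0.00136, limma), where 0.0915% of 16388 clusters passed. It sets a fall in cortex against a tissue where the control arrays were already near the bottom of the scale, so that a fall of that size could not have been seen in medulla and the difference does not show that lithium acted differently there. Markers of the proximal tubule in the same cortex arrays had a list mean of 9.95 to 10.52 in lithium-treated rats and 10.18 to 10.56 in control rats. Of these 19 markers 0 passed in limma (1 at an unadjusted p under 0.05, and 1 higher without scan group in the fit). The part of these or other cells in the values of Kcne1 was not tested.

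Kcnq1 encodes the voltage-gated pore that Kcne1 joins. In medulla it had a lowest value of 9.17, a median of 9.53 and a highest of 9.75 in lithium-treated rats, and 8.20, 8.75 and 8.97 in control rats. Every lithium-treated medulla array lay above every control medulla array. Its log2 fold change was 0.89 (SE 0.165, 95% interval 0.53 to 1.25, adjusted p = 0.0300, limma), and within the 3 scan groups the difference ran from 0.55 to 1.09. The adjusted p passed 0.05 in 4 of the 12 fits that left out 1 array and was 0.0503 to 0.0951 in the others, which left out control 1, 15 or 30 or lithium-treated 17, 18, 19, 21 or 22, with a log2 fold change of 0.79 to 0.98 over all 12.

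In cortex, Kcnq1 was 8.18, 8.30, 8.13, 8.36 and 8.65 in lithium-treated animals 6, 18, 19, 21 and 22, and had a lowest value of 7.80, a median of 8.13 and a highest of 8.39 in control rats. The groups overlapped, and the log2 fold change of 0.19 (95% interval -0.11 to 0.48) had an adjusted p of 0.798. The difference of the effect between medulla and cortex was 0.71 (95% interval 0.23 to 1.18, adjusted p = 0.256), so it is not shown that lithium acted on Kcnq1 differently in the 2 tissues.

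Kcnj1 encodes ROMK, the apical channel of the thick ascending limb and of principal cells. In medulla its log2 intensity spread widely on both diets, with a lowest value of 7.30, a median of 9.31 and a highest of 9.93 in lithium-treated rats, and 6.62, 9.84 and 11.13 in control rats. The control SD was 1.83 (n = 6), the widest of the 9 genes in any group. The log2 fold change of -0.25 had a 95% interval of -1.98 to 1.48 (adjusted p = 0.888), and its sign turned when control 16, lithium-treated 17 or control 29 was left out (0.20, 0.20 and 0.15). In cortex, where the arrays lay between 7.74 and 8.65 in lithium-treated rats and between 8.05 and 9.06 in control rats, it was -0.32 (95% interval -0.77 to 0.13, adjusted p = 0.775). Without lithium-treated 19, the lowest cortex array, it was -0.16.

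The medulla spread of Kcnj1 went along with that of genes of the thick ascending limb. Kcnj1 was lowest in control 30 (6.62), lithium-treated 17 (7.30), control 15 (7.71) and lithium-treated 18 (8.85). Slc12a1, the apical sodium, potassium and chloride cotransporter of that segment, was lowest on the same 4 arrays, at 4.83 in lithium-treated 17, 7.38 in lithium-treated 18, 7.32 in control 30 and 9.01 in control 15. Their mean over the 11 measured thick ascending limb markers was 7.13 to 8.81, and it was 9.17 to 10.40 on the other medulla arrays. How far the share of this segment in each piece of medulla entered the values of the channels was not tested.

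**Figure D2:**
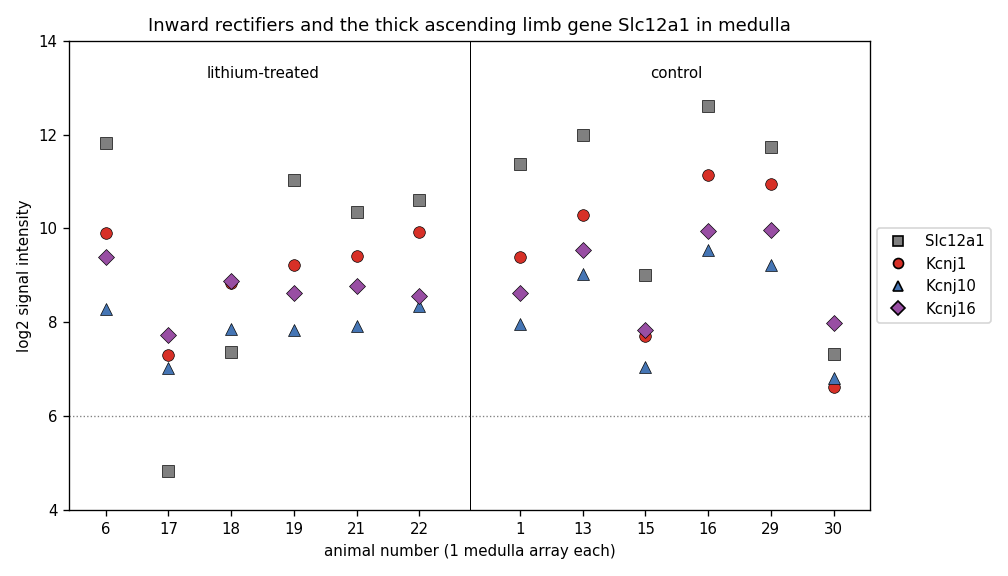
Log2 signal intensity (y axis) of Kcnj1, Kcnj10, Kcnj16 and the thick ascending limb gene Slc12a1 on each medulla array, by animal number (x axis), lithium-treated rats on the left and control rats on the right. Each gene is read against itself across animals, since levels of different probes are not comparable. The 3 channel genes and Slc12a1 are all low in lithium-treated animal 17 and control animals 15 and 30. In lithium-treated animal 18, Slc12a1 is also low (7.38). There Kcnj10 is 7.86 and Kcnj16 8.89, against medians of 7.89 and 8.69 in lithium-treated medulla.

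With the 4 medulla arrays under a marker mean of 9 left out, a choice made after seeing the data, the log2 fold change of Kcnq1 was 0.63 (adjusted p = 0.193). Control 15 and control 30, which were left out, held the lowest control values of Kcnq1 (8.20 and 8.24). A smaller difference of Kcnq1 was thus given by the choice of arrays, and nothing about the thick ascending limb is read from it. Those of Kcnj1, Kcnj10 and Kcnj16 were -0.96, -0.93 and -0.73 in that fit, and none of them passed (adjusted p of 0.334, 0.315 and 0.407). In that smaller fit 0 of the 8 channel genes and 31 clusters passed in limma, against 1 gene and 190 clusters with all arrays, and it compared 4 lithium-treated with 4 control rats.

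Kcnma1 encodes the pore of the BK channel, which opens with calcium and voltage and secretes potassium when tubule flow is high. In medulla it had a lowest value of 6.07, a median of 6.22 and a highest of 6.58 in lithium-treated rats, and 4.91, 5.84 and 6.03 in control rats. Every lithium-treated array lay above every control array, but the log2 fold change of 0.56 (SE 0.187) did not pass (adjusted p = 0.143). Control 15, at 4.91, lay far below the other control arrays, and without it the log2 fold change was 0.36. In cortex the lithium-treated arrays were 5.94, 6.70, 6.09, 6.30 and 6.31 and the control arrays had a lowest value of 5.69, a median of 5.88 and a highest of 6.19, with a log2 fold change of 0.36 (SE 0.147, adjusted p = 0.604). The gene stood close to the log2 value of 6 in both tissues. In medulla 6 lithium-treated arrays and 1 control array reached it, and in cortex 4 of 5 lithium-treated and 2 of 6 control arrays did. Kcnma1 thus met the filter in both tissues mainly through the lithium-treated arrays, and its control means lie in the range called too dim to test.

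Kcnj10 and Kcnj16 encode subunits that together form the main basolateral channel of the distal convoluted tubule and the cortical collecting duct. In cortex, Kcnj10 was 7.96, 8.27, 7.43, 8.03 and 8.43 in lithium-treated rats, against a lowest value of 8.28, a median of 8.63 and a highest of 9.04 in control rats. On 4 of the 5 lithium-treated arrays it was below every control array. Its log2 fold change of -0.60 (SE 0.195, 95% interval -1.03 to -0.18) did not pass (adjusted p = 0.418). Markers of the distal convoluted and connecting tubule in the same arrays had a list mean of 7.48 to 8.17 in lithium-treated and 8.13 to 8.84 in control cortex. Of these 7 markers 2 fell, namely Klk1 (tissue kallikrein, -1.85) and Slc8a1 (the sodium and calcium exchanger, -1.40). The median log2 fold change of the 7 was -0.31, and 2 of them had a positive one (highest 0.38). Lithium-treated 19 had the lowest value of all cortex arrays for Kcnj10 (7.43), and also for Kcnj1, Kcnj15 and Kcnj16. The same array had the lowest list mean of these distal markers (7.48) and of proximal tubule markers (9.95). It had the highest list mean of smooth muscle, pericyte and fibroblast markers (8.77). With 1 array left out, the log2 fold change of Kcnj10 ran from -0.72 to -0.44. The part of any of these cells in the values of Kcnj10 was not tested.

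In medulla, Kcnj10 had a lowest value of 7.03, a median of 7.89 and a highest of 8.36 in lithium-treated rats and 6.82, 8.49 and 9.55 in control rats. Kcnj16 had 7.73, 8.69 and 9.39 in lithium-treated and 7.84, 9.09 and 9.97 in control medulla. Both overlapped between the diets, with log2 fold changes of -0.39 for Kcnj10 (95% interval -1.44 to 0.67) and -0.33 for Kcnj16 (95% interval -1.26 to 0.60), at adjusted p of 0.681 and 0.698. The lowest values of both genes were those of lithium-treated 17 and control 15 and 30, which were also low in Kcnj1. In cortex, Kcnj16 was 11.29, 11.43, 10.55, 11.15 and 10.96 in lithium-treated rats and between 10.99 and 11.19 in control rats, with a log2 fold change of -0.02 (95% interval -0.35 to 0.30, adjusted p = 0.980).

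Kcnj15 encodes a further inward rectifier subunit, which pairs with Kcnj16 on the basolateral side of the proximal tubule. In medulla it had a lowest value of 5.95, a median of 6.20 and a highest of 6.73 in lithium-treated rats, and 6.64, 6.87 and 7.33 in control rats. On 4 of the 6 lithium-treated arrays it was below every control array. The log2 fold change of -0.63 (SE 0.176) did not pass (adjusted p = 0.101). It passed without scan group in the fit (adjusted p = 0.0385) and without lithium-treated animal 6 (-0.71, adjusted p = 0.0438), and in these 2 fits 6.56% and 6.57% of all medulla clusters passed. In cortex, Kcnj15 was 10.22, 10.38, 9.49, 10.09 and 9.62 in lithium-treated rats and between 9.75 and 10.11 in control rats, a log2 fold change of 0.05 (95% interval -0.32 to 0.42, adjusted p = 0.965).

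Proximal tubule markers stood beside Kcnj15 in medulla, where 16 of the 17 measured had a negative log2 fold change, with a median of -0.67. In limma 0 passed (8 at an unadjusted p under 0.05, and 2 lower without scan group in the fit). Their list mean ran from 6.74 to 8.01 in lithium-treated and from 7.35 to 8.77 in control medulla. Slc34a1, the phosphate transporter of this segment, was 8.78, 7.63, 8.86, 7.65, 8.41 and 7.59 in lithium-treated animals 6, 17, 18, 19, 21 and 22, and had a lowest value of 8.77, a median of 9.19 and a highest of 10.12 in control medulla. The part of these cells in the values of Kcnj15 was not tested.

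Kcnk1 encodes a weakly conducting 2-pore-domain potassium channel that is found in proximal tubule, thick ascending limb and collecting duct cells. In cortex it was 7.82, 7.91, 7.87, 7.94 and 8.26 in lithium-treated animals 6, 18, 19, 21 and 22, and had a lowest value of 6.96, a median of 7.21 and a highest of 7.65 in control rats. All 5 lithium-treated arrays lay above all 6 control arrays. Its log2 fold change was 0.72 (SE 0.141, 95% interval 0.42 to 1.03, adjusted p = 0.0486, limma), and within the 3 scan groups with both diets the difference ran from 0.51 to 1.00. The call stood just inside the threshold. Leaving out the array of lithium-treated 17, which has no value of its own, could not change the fit. Of the 11 fits that left out another array, the call held in 1, that without control 13, and its adjusted p was 0.0574 to 0.161 in the other 10. Groups did not overlap, with lithium higher, for Kcnk1 alone among the 8 tested genes and for 1.85% of all cortex clusters.

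In medulla, Kcnk1 had a lowest value of 10.28, a median of 10.56 and a highest of 10.74 in lithium-treated rats, and 9.91, 10.21 and 10.53 in control rats. On 4 of the 6 lithium-treated arrays it was above every control array. The log2 fold change of 0.32 (SE 0.135, 95% interval 0.03 to 0.62) did not pass (adjusted p = 0.219), and the effect in medulla minus that in cortex was -0.40 (adjusted p = 0.422). Kcnk5, the other channel of this class among the 10, encodes an alkali-sensitive channel and is named here without a value.

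Kcnn4 encodes a calcium-activated potassium channel of intermediate conductance, known from T cells, red blood cells, fibroblasts and many epithelia. In medulla it had a lowest value of 5.98, a median of 6.31 and a highest of 6.55 in lithium-treated rats, and 5.77, 5.88 and 5.95 in control rats. The 6 lithium-treated arrays lay above the 6 control arrays. Of them 5 lithium-treated and 0 control arrays reached the log2 value of 6, so that the gene entered the test only through the lithium-treated arrays. Its log2 fold change of 0.43 (SE 0.113, 95% interval 0.18 to 0.67) did not pass (adjusted p = 0.0891). It passed without scan group in the fit (adjusted p = 0.0276) and without lithium-treated animal 6 (0.50, adjusted p = 0.0214). In these 2 fits 6.56% and 6.57% of all medulla clusters passed, against 1.19% in the main fit. With Kcnq1 and Kcnma1, Kcnn4 is 1 of 3 tested channel genes whose medulla groups did not overlap, with lithium higher, as for 2.12% of all medulla clusters, and nothing is read from that count.

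Of 9 immune cell markers measured in the same medulla arrays as Kcnn4, 2 rose and 7 did not pass, with a median log2 fold change of 0.68 and a list mean of 8.04 to 8.73 in lithium-treated and 6.76 to 8.32 in control rats. Cd68, a macrophage protein, rose by 1.06 on the log2 scale (adjusted p = 0.0411, limma). Cd3e, part of the T cell receptor complex, rose by 0.68 (adjusted p = 0.0411, limma). No control medulla array of Cd3e reached the log2 value of 6, so that Cd3e entered the test only through lithium-treated arrays. Its 0.68 is a difference of measured means, of which the control one lies in the range called too dim to test. The 4 measured red blood cell markers had a median log2 fold change of 0.67 in medulla. Of them 0 passed in limma (1 at an unadjusted p under 0.05, and 0 without scan group in the fit). Both list means were lowest in control 30 (6.76 for immune and 6.75 for red blood cell markers) and control 15 (7.25 and 7.44). These arrays were also low in thick ascending limb markers. On the other control arrays the immune list mean was 7.80 to 8.32, which overlaps the lithium-treated range. The part of immune and red blood cells in the values of Kcnn4 was not tested. In cortex, no array of either diet reached 6 for Kcnn4, and the means differed by 0.12.

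**Figure D3:**
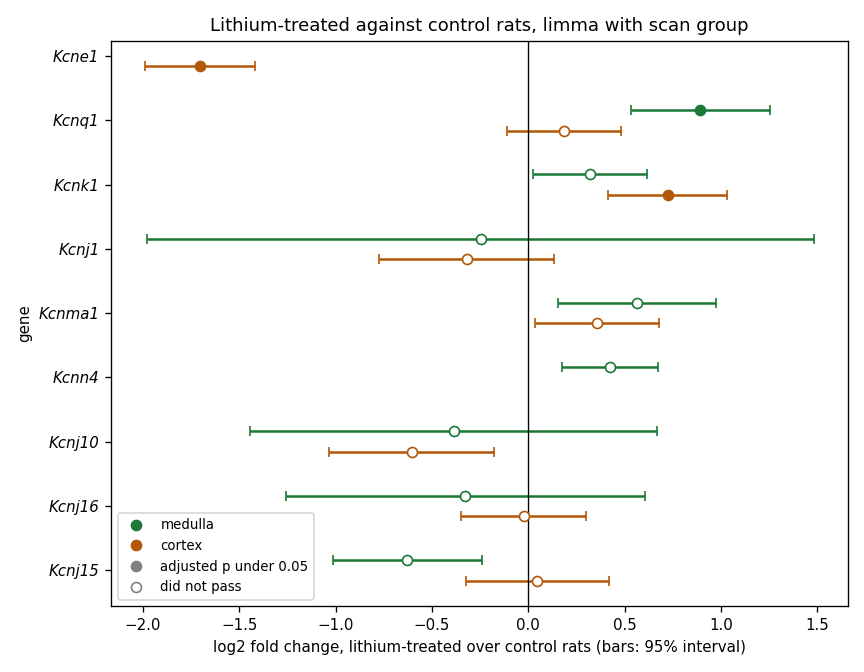
Log2 fold change (x axis) of each tested gene (rows) in lithium-treated over control rats, with 95% intervals from limma, in medulla and in cortex. Filled points had an adjusted p under 0.05, namely Kcnq1 in medulla and Kcnk1 and Kcne1 in cortex, and a gene without a point in a tissue was too dim to be tested there.

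Intercalated cells, the acid and base transporting cells of the collecting duct, carry BK channels, and their markers were measured in the same medulla arrays as Kcnq1 and Kcnma1. Of 15 measured, 12 did not pass and 3 rose, namely Oxgr1 (the oxoglutarate receptor, 2.13 on the log2 scale), Slc4a9 (a basolateral bicarbonate transporter, 1.99) and Atp6v1g3 (a proton pump subunit, 1.10), and all 15 had a positive log2 fold change, with a median of 1.29. Their list mean was 9.14 to 10.12 in lithium-treated and 6.68 to 9.23 in control medulla, which overlap, and was lowest in control 30 (6.68) and control 15 (7.56), which also held the lowest control values of Kcnq1. In cortex, 1 of 17 rose (Dmrt2, a transcription factor, 0.68), and the list mean was 7.86 to 8.93 in lithium-treated and 8.02 to 8.61 in control rats. The part of these cells in the values of Kcnq1, Kcnma1 and Kcnk1 was not tested.

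Of 28 listed partners and regulators of tubular potassium transport (kinases, sodium channel subunits, the sodium pump and mineralocorticoid signalling), 21 were tested in each tissue. In medulla 0 passed in limma (4 at an unadjusted p under 0.05, and 2 lower without scan group in the fit), and in cortex 3 fell. Scnn1g and Scnn1b, subunits of the epithelial sodium channel whose current drives potassium secretion, fell in cortex, with log2 fold changes of -1.44 (adjusted p = 0.0190) and -0.87 (adjusted p = 0.0443). Hsd11b2, which keeps glucocorticoids off the mineralocorticoid receptor, fell by 0.90 on the log2 scale (adjusted p = 0.0114). These 3 genes are also principal cell markers, of which 4 of 11 fell and 1 rose in cortex. Aqp2, the vasopressin-regulated water channel, averaged 8.53 ± 0.30 in lithium-treated (SD, n = 5) and 9.99 ± 0.34 in control cortex (SD, n = 6), and Aqp4, the basolateral water channel, 8.56 ± 0.61 and 6.39 ± 0.40. Kcnj1, which principal cells also use, did not pass in the same arrays.

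Beyond these 10 genes, 74 further genes with a symbol that begins with Kcn had a cluster on the array, of which 26 were tested in medulla and 20 in cortex. In medulla 1 of them rose, Kcna3, a voltage-gated channel best known from T cells, which had values between 6.76 and 7.39 in lithium-treated and between 6.22 and 6.48 in control rats (log2 fold change 0.68, SE 0.115, adjusted p = 0.0215). The largest other differences in medulla were those of Kcnn3 (-0.69, adjusted p = 0.412) and Kcne3 (0.69, adjusted p = 0.485), neither of which passed. In cortex 0 passed in limma (2 at an unadjusted p under 0.05, and 1 lower without scan group in the fit), and the largest differences were those of Kcnab1 (-0.63, adjusted p = 0.127) and Kcnj12 (-0.32, adjusted p = 0.600). The median log2 fold change of these further genes was 0.07 in medulla and -0.06 in cortex.

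**Figure D4:**
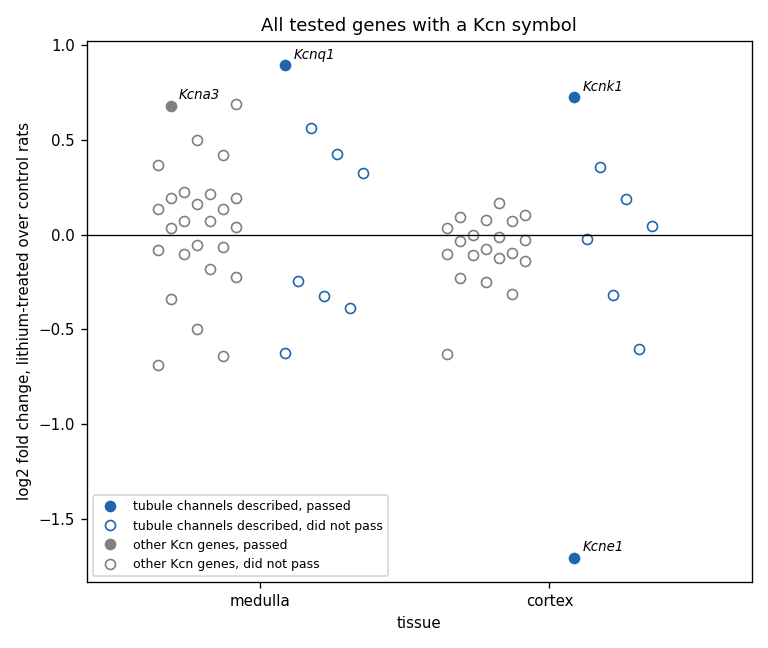
Log2 fold change in lithium-treated over control rats (y axis) of every tested gene with a Kcn symbol, in medulla and in cortex. The sideways place of a point within a tissue only separates the points, filled points had an adjusted p under 0.05 in limma, and among the genes outside the 10 described here Kcna3 in medulla is the 1 that passed.

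Between the tissues of the control rats, 6 of the 9 measured channel genes differed, where 72.4% of 16388 clusters did, 64.4% higher in medulla and 7.93% lower. Differences are control medulla minus control cortex on the log2 scale. Kcnk1 was higher in medulla, at 2.98 (SE 0.154, adjusted p = 4.86e-11, limma). Kcnj15 was lower in medulla, at -2.98 (SE 0.198, adjusted p = 9.16e-10), as were Kcne1 at -2.33 (adjusted p = 5.97e-09) and Kcnj16 at -2.11 (adjusted p = 7.64e-05). These 4 differences passed under every other scaling that was run. Kcnn4 (0.54, adjusted p = 0.00120) and Kcnq1 (0.50, adjusted p = 0.0139) were higher in medulla as deposited, but all medulla arrays also had a higher median. With each array centred on its median they were 0.19 (adjusted p = 0.220) and 0.14 (adjusted p = 0.501), and Kcnq1 turned to -0.04 after quantile normalization of all arrays. Kcnj1 (0.72), Kcnma1 (-0.19) and Kcnj10 (-0.36) did not pass as deposited, but Kcnma1 was lower in medulla with arrays centred (-0.55, adjusted p = 0.0237) and after quantile normalization (-0.53, adjusted p = 0.0277).

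As deposited, the order of the group means within a gene followed tissue before diet for every measured gene but Kcnma1 and Kcnj10. For Kcnj1, 1 of these genes, the difference between the control tissues did not pass. Kcnk1, Kcnj15 and Kcnj16 are also among these genes. The lithium-treated and control values of Kcnk1, Kcnj15 and Kcnj16 overlapped in medulla, and in cortex those of Kcnj15 and Kcnj16 did. Kcnk1 had its means at 10.54 in lithium-treated medulla, 10.22 in control medulla, 7.96 in lithium-treated cortex and 7.23 in control cortex. Kcnj15 ran the other way, at 6.30 and 6.93 in lithium-treated and control medulla and at 9.96 and 9.92 in lithium-treated and control cortex, and so did Kcnj16, at 8.66 and 8.99 in medulla and 11.08 and 11.10 in cortex. For Kcne1 the lithium-treated cortex, at 4.95 ± 0.28 (SD, n = 5), stood closer to the medulla groups, at 4.47 ± 0.27 in lithium-treated and 4.32 ± 0.35 in control rats (SD, n = 6 each), than to control cortex, at 6.65 ± 0.10 (SD, n = 6).

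The genes most like each called channel were found among 9654 named genes by the root-mean-square difference of log2 values over 23 arrays, each gene centred on its own mean and the array without a value of its own left out. The likeness is a description, in which tissue and diet both enter, so the fold changes of the genes found this way are no separate evidence. For Kcne1 they were Defb11 (0.376), Klk1c9 (0.455) and Prima1 (0.508). Defb11, a defensin gene, and Prima1, which anchors acetylcholinesterase in the membrane, fell in cortex, with log2 fold changes of -1.94 (adjusted p = 0.00180) and -1.25 (adjusted p = 0.00543), and Klk1c9, a kallikrein gene of a family of near-identical copies, had -1.70 (adjusted p = 0.0554). For Kcnk1 they were St14 (0.291), the membrane serine protease matriptase, Scin (0.308), an actin-severing protein, and Tbc1d9 (0.317). St14 rose in cortex by 0.59 (adjusted p = 0.0341), and Scin (0.25, adjusted p = 0.850) and Tbc1d9 (0.46, adjusted p = 0.234) did not pass there. For Kcnq1 they were Slc28a3 (0.155), a nucleoside transporter, Tmprss2 (0.213), a membrane serine protease, and Fam234b (0.216). In medulla Slc28a3 rose by 0.88 (adjusted p = 0.0411) and Tmprss2 by 0.64 (adjusted p = 0.0397), and Fam234b had 0.49 (adjusted p = 0.192). Defb11 and Klk1c9 were too dim to be tested in medulla, as was Slc28a3 in cortex.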

How the data were processed

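The gene expression of cortex and medulla of 12 rats was measured on 24 Affymetrix arrays. Signal intensities were deposited by the authors on the log2 scale for 28894 transcript clusters. They had been processed in Partek, with RMA background correction, normalization by quantiles, a log2 transformation and a median polish, and scan date had been removed by an analysis of variance within each tissue. The notes of the submitters name rn4, and no coordinates were used. Clusters were named by the platform annotation, where 15097 had 1 symbol, 323 several and 13474 none, and those with several were not named.

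Removing scan date leaves directions with no residual variance, from which the scan groups were recovered, a step tested on simulated data. The sources used here do not give the dates. By animal the groups are 1, 6, 13 and 17, then 15, 16, 18 and 19, then 21, 22, 29 and 30 in medulla, and the same in cortex except that 17 stands alone. The diets were compared with limma 3.58.1 (lmFit and eBayes, R 4.3.3) with scan group in the fit, as the methods of the study have it. Clusters entered if their log2 value reached 6 on 4 or more of 12 arrays (13766 in cortex, 16025 in medulla), with Benjamini-Hochberg adjustment over all of them and a threshold of 0.05. This left 7 residual degrees of freedom in cortex and 8 in medulla. Tissue differences came from 1 fit of all 24 arrays with 15. An animal carries the same number on its cortex and medulla labels. Over 11 animals the correlation of the deviations of these arrays from the group means was -0.057 to 0.417, over 0.1 in 6 of them, and the animal was a block in alternative fits. Other alternatives were no scan group, other filters, 2 other scalings, a prior variance that follows the level, the tests named by the study, and each array left out.

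The channel genes and all lists were chosen with earlier results of these data known. Other genes are named by a rule, namely from each list up to 3 called genes with the largest fold change, of the other Kcn genes at most 4 called in a tissue or, if fewer than 2 were called, the 2 largest differences, and for each called channel the 3 genes nearest to it. Slc12a1, Slc34a1 and Aqp2 were given with their values as markers. Figures were drawn with matplotlib 3.10.9.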

Additional observations from a re-analysis of the deposited data

Results flagged for a closer look

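Of 36 groups of values of the channel genes, 2 held a sample far from the others, at a rate where chance alone gives about 1 in 20 groups. Kcnma1 in control medulla was 4.91 in animal 15, against 5.74 to 6.03 in the other 5 control rats, a gap of 0.740 of the range of that group. Kcnk1 in lithium-treated cortex was 8.26 in animal 22, against 7.82 to 7.94 in the other 4 lithium-treated rats with values of their own, a gap of 0.725 of the range. Without animal 22 the log2 fold change of Kcnk1 in cortex was 0.64 (adjusted p = 0.146, limma).

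The effect of lithium on Kcne1 differed between the tissues by the test of the difference itself, at 1.86 on the log2 scale for medulla minus cortex (adjusted p = 0.00136, limma). All medulla arrays of both diets were under the log2 value of 6, at 3.78 to 4.86, so a fall like that in cortex could not have been seen there, and the test does not show a different action of lithium in the 2 tissues.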

How the results depend on the processing

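In cortex, 2 channel genes passed with all arrays, and 1, Kcne1, without a filter on low values, with each array centred on its median and with quantile normalization repeated, where Kcnk1 had adjusted p of 0.0844, 0.0598 and 0.0634. With the methods' analysis of variance and with the methods' t-test at its unadjusted threshold it was 3, with Kcnj10 added (-0.60). Leaving out 1 array gave 1 to 2. In medulla, where 1 passed, the count was 3 without scan group (Kcnq1, Kcnj15 and Kcnn4), 2 each with the methods' analysis of variance, the methods' t-test at its unadjusted threshold and that test after Benjamini-Hochberg, and 0 without the 4 arrays low in thick ascending limb markers, an alternative chosen after seeing the data that also leaves fewer arrays. Leaving out 1 array gave 0 to 3.

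Over all clusters, the 79 calls in cortex became 288 without scan group, 143 with the methods' analysis of variance, 163 with the methods' t-test, 296 with that test after Benjamini-Hochberg, and 34 to 92 with 1 array left out. The 190 calls in medulla became 1052, 558, 651 and 650 in the same 4 fits, 31 without the 4 arrays low in the marker, and 50 to 1053 with 1 array left out, highest without lithium-treated animal 6. With arrays centred, 101 medulla clusters were higher and 96 lower, against 133 and 57 as deposited. The fit without scan group counts degrees of freedom that the removal of scan date used, 10 in place of 7 in cortex and of 8 in medulla.

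With the animal as a fixed or a random replicate block, the tissue difference of the lithium effect passed for 1 channel gene and the difference between control tissues for 6, as without a block, and the block changed no call of a channel gene. Leaving out 1 animal gave 1 and 5 to 7 of these. Signs turned with 1 array or animal left out for differences that had not passed: Kcnj15 in cortex (-0.085 to 0.181), Kcnj16 in cortex (-0.128 to 0.129), Kcnj1 in medulla (-0.931 to 0.202), and the tissue difference of the effect for Kcnj1 (-0.537 to 0.522) and Kcnj10 (-0.129 to 0.528). Kcnq1 between control tissues had passed and was -0.037 after quantile normalization. The cause was not tested. Other clusters of a channel gene could not be tried, since each had 1.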

Other observations

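Some cell groups that were measured beside the channels have not been described yet, and their part in the values of the channels was not tested. In medulla, 1 of 5 markers of the distal convoluted and connecting tubule rose, namely Trpv5, the apical calcium channel of that segment, by 2.55 on the log2 scale (adjusted p = 0.00685, limma), with values of 6.32 to 8.19 in lithium-treated and 4.31 to 5.62 in control rats. No control medulla array of Trpv5 reached the log2 value of 6, so that this gene entered the test only through the lithium-treated arrays. Its 2.55 is a difference of measured means, of which the control one lies in the range called too dim to test. Of the 5 markers, 3 had a negative log2 fold change, the median was -0.27, and 1 was called higher and 1 lower without scan group in the fit. Emcn, a surface protein of endothelium, had a log2 fold change of -0.91 there (adjusted p = 0.0462) as 1 of 6 endothelial markers that fell (4 without scan group in the fit), and Podxl, which podocytes share with endothelium, had -1.01 (adjusted p = 0.0344) as 1 of 5 podocyte markers that fell. The other podocyte markers did not pass, 3 of the 5 had a positive log2 fold change, the median was 0.03, and 1 was called higher and 1 lower without scan group in the fit. In cortex 0 of 6 endothelial and 0 of 6 podocyte markers passed in limma (0 and 1 at an unadjusted p under 0.05, and 0 of each without scan group in the fit).

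Of the thick ascending limb markers, 0 of 11 passed in medulla (0 at an unadjusted p under 0.05, and 0 without scan group in the fit) and 0 of 10 in cortex (5 at an unadjusted p under 0.05, and 1 lower without scan group), with a median log2 fold change of -0.57 and -0.37. Thin limb and papilla markers had a median of -0.53 over 8 genes in medulla and 0.17 over 7 in cortex, and smooth muscle, pericyte and fibroblast markers had 0.26 over 10 in medulla and 0.27 over 11 in cortex. In limma 0 of these passed in either tissue (3 and 2 thin limb and papilla genes and 4 and 1 smooth muscle, pericyte and fibroblast genes at an unadjusted p under 0.05 in medulla and cortex). Without scan group in the fit, 1 thin limb and papilla gene was higher in cortex and 2 smooth muscle, pericyte and fibroblast genes were higher in medulla. Principal cell markers had 0 of 12 past the test in medulla (3 at an unadjusted p under 0.05, and 0 without scan group), and immune and red blood cell markers had 0 of 7 and 0 of 4 in cortex (0 of each at an unadjusted p under 0.05).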
